A study of Arabidopsis thaliana with 12 samples.

Results

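In Arabidopsis thaliana seedlings 8 loci, AT5G03090, AT2G15560, AT2G20460, AT2G13160, AT5G43800, AT4G03530, AT3G43640 and AT5G26020, had much higher array signals in the mutant abi4-102 than in Col-0 with lincomycin, and 7 of them, all but AT2G13160, also without it. They were picked as among the highest in abi4-102 against Col-0, with no medium named. The values of abi4-102 against Col-0 therefore describe the choice and are given with no test. The array holds 22746 probe sets besides controls, and 13355 genes have a probe set that names them alone. Such a probe set can still hold probes shared with related sequences. The series compared the response to lincomycin, an antibiotic that blocks translation in plastids, between genotypes. Total RNA of whole seedlings, 5 days old, was hybridised to 12 Affymetrix ATH1 arrays, 2 for each of 6 groups: abi4-102, gun1-1 and Col-0, each with and without lincomycin. All groups grew at 21 °C in light/dark cycles, at a light level of 20 µmol per square metre and second, and the medium held 1% sucrose. The treatment text gives 220 µg/ml lincomycin and the source name 200 µg/ml. Both mutants carry the ecotype tag Col-0, and wild-type Col-0 was the control. Each mutant was 1 allele, so the mutation and any other difference of that line from Col-0 cannot be told apart.

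ABI4 is a transcription factor of the AP2 family, known for its part in abscisic acid and sugar signalling of seedlings, and has been proposed to act in signalling from plastids to the nucleus. GUN1 is a pentatricopeptide repeat protein of plastids that is needed for the repression of photosynthesis genes when plastid translation is blocked. Pseudogenes are loci that resemble genes but are not expected to give a working protein, and in plant genomes many derive from transposable elements. Such elements are usually kept silent by DNA methylation and repressive histone marks, and they lie most densely around the centromeres.

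All values are log2 levels made by the authors with RMA, and n = 2 arrays for every group mean. Array medians lay between 5.44 and 5.52. In gun1-1 and Col-0 every one of the 8 loci averaged below its array's median, between percentile 3.04 and percentile 40.8 of the probe sets on the array, so their levels there were dim and differences from them may be understated. In abi4-102 the loci averaged between percentiles 45.1 and 82.7 with lincomycin and between percentiles 34.1 and 79.0 without it. No locus was lost to a filter on dim probe sets, since none was applied. For replicate 2 of gun1-1 without lincomycin the title was used, since its genotype tag names all 3 genotypes. The ABI4 and GUN1 genes are not analysed here by name and give no check of the genotype labels. The gene table puts 2 of the 8 loci, AT5G03090 and AT2G15560, in the protein-coding class and the other 6 in the pseudogene class. None of the 8 is described there in the words of transposable elements, so their transposon-like nature could not be checked, and they are called by their class below. The tables used name no function for any of the 8.

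AT2G15560, a protein-coding gene on chromosome 2, was the brightest of the loci. Its arrays read 7.72 and 7.94 in abi4-102 with lincomycin and 7.49 and 7.47 in abi4-102 without it. The gun1-1 arrays read 4.53 and 4.65 with lincomycin and 4.75 and 4.61 without it, and the Col-0 arrays 4.81 and 4.70 with lincomycin and 4.69 and 4.70 without it. The 4 abi4-102 arrays stood 2.67 above the highest of the other 8, and over both media together the gun1-1 and Col-0 arrays overlapped. The difference of abi4-102 from Col-0 was 3.07 with lincomycin (8.43-fold) and 2.79 without it (6.91-fold). Among probe sets that name 1 gene, a wider gap between the 4 abi4-102 arrays and the rest was found for QQS alone.

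AT5G03090, the other protein-coding gene, lies on chromosome 5. Its arrays read 6.97 and 7.03 in abi4-102 with lincomycin and 6.29 and 6.32 in abi4-102 without it. They read 4.07 and 4.35 in gun1-1 with lincomycin and 4.01 and 4.14 without it, against 3.80 and 3.84 in Col-0 with lincomycin and 3.70 and 3.82 without it. All gun1-1 arrays lay above all Col-0 arrays, far below abi4-102. The difference of abi4-102 from Col-0 was 3.18 with lincomycin (9.07-fold), which was the highest of the 8, and 2.55 without it (5.86-fold).

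The pseudogenes AT2G20460, AT5G43800 and AT5G26020 have probe sets of the plain kind, whose probes are meant to match a single transcript. AT2G20460, on chromosome 2, read 5.23 and 5.85 in abi4-102 with lincomycin and 5.69 and 5.43 in abi4-102 without it. Its gun1-1 arrays read 3.43 and 3.75 with lincomycin and 3.89 and 3.83 without it, and its Col-0 arrays 3.61 and 3.78 with lincomycin and 3.49 and 3.59 without it. It was the only locus of the 8 whose mean in abi4-102 was no higher with lincomycin than without it, and the difference of abi4-102 from Col-0 was 1.84 with lincomycin (3.58-fold) and 2.02 without it (4.06-fold). AT5G43800, on chromosome 5, read 6.35 and 6.43 in abi4-102 with lincomycin and 5.80 and 5.55 in abi4-102 without it. Its gun1-1 arrays read 4.34 and 4.71 with lincomycin and 4.73 and 4.59 without it, and its Col-0 arrays 4.36 and 4.56 with lincomycin and 4.62 and 4.67 without it. The abi4-102 arrays of the 2 media were apart, and those of gun1-1 and Col-0 were mingled. The difference of abi4-102 from Col-0 was 1.93 with lincomycin (3.81-fold) and 1.03 without it (2.05-fold). AT5G26020, also on chromosome 5, read 5.09 and 5.20 in abi4-102 with lincomycin and 4.82 and 5.02 in abi4-102 without it. Its gun1-1 arrays read 3.41 and 3.54 with lincomycin and 3.47 and 3.52 without it, and its Col-0 arrays 3.02 and 3.56 with lincomycin and 3.46 and 3.61 without it. The gap between the abi4-102 arrays and the rest was 1.21, and the difference of abi4-102 from Col-0 was 1.85 with lincomycin (3.62-fold) and 1.39 without it (2.61-fold).

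The other 3 pseudogenes were read by probe sets whose name marks probes shared with related sequences, so their signal can hold RNA of near-identical copies. AT4G03530, on chromosome 4, read 4.81 and 5.37 in abi4-102 with lincomycin and 4.16 and 4.31 in abi4-102 without it. Its gun1-1 arrays read 2.66 and 2.97 with lincomycin and 3.07 and 2.96 without it, and its Col-0 arrays 2.84 and 3.01 with lincomycin and 2.93 and 3.31 without it. It was the dimmest of the 8 in gun1-1 and Col-0, and the difference of abi4-102 from Col-0 was 2.16 with lincomycin (4.48-fold) and 1.11 without it (2.15-fold). AT3G43640, on chromosome 3, read 4.99 and 5.65 in abi4-102 with lincomycin and 4.83 and 4.91 in abi4-102 without it. Its gun1-1 arrays read 3.11 and 3.87 with lincomycin and 3.77 and 3.58 without it, and its Col-0 arrays 3.29 and 3.66 with lincomycin and 3.49 and 3.38 without it. The difference of abi4-102 from Col-0 was 1.84 with lincomycin (3.58-fold) and 1.44 without it (2.71-fold), and its replicates were the widest apart of the 8, with an SD of 0.533 in gun1-1 with lincomycin.

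AT2G13160, a pseudogene on chromosome 2, was the exception among the 8 on medium without lincomycin. Its arrays read 6.14 and 6.25 in abi4-102 with lincomycin, and 4.93 and 4.66 in abi4-102 without it. The gun1-1 arrays read 3.89 and 4.13 with lincomycin and 4.39 and 4.38 without it, and the Col-0 arrays 4.26 and 4.22 with lincomycin and 4.41 and 4.96 without it. Without lincomycin the abi4-102 and Col-0 arrays overlapped. The difference of abi4-102 from Col-0 was 1.96 with lincomycin (3.89-fold) and 0.11 without it (1.08-fold). A name for the 8 loci as constitutively higher in abi4-102 thus did not hold for AT2G13160, whose abi4-102 arrays cleared those of Col-0 with lincomycin but not without it.

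**Figure D1:**
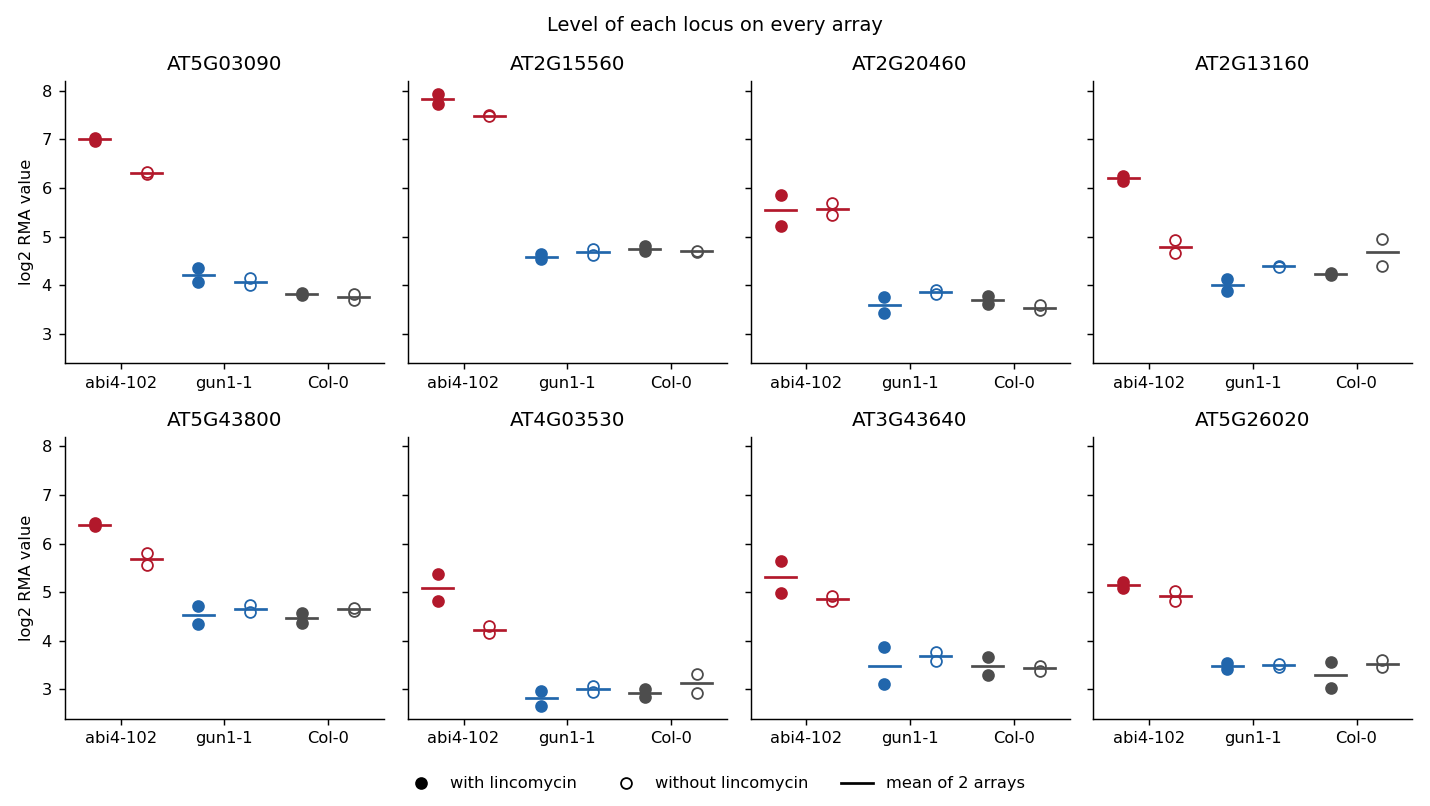
Level of each of the 8 loci on every array, as log2 RMA value on the vertical axis, by genotype on the horizontal axis; filled points are arrays with lincomycin, open points arrays without it, and bars are means of 2 arrays. The abi4-102 arrays lie above all gun1-1 and Col-0 arrays for every locus except AT2G13160, whose abi4-102 arrays without lincomycin (4.93 and 4.66) lie among those of Col-0.

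Both abi4-102 arrays lay above both Col-0 arrays for 8 of 8 loci with lincomycin, where 19.6% of all probe sets did so, and for 7 of 8 without it, where 24.3% did. All 4 abi4-102 arrays lay above all 8 arrays of gun1-1 and Col-0 for 7 of the 8 loci, against 185 of all 22746 probe sets (0.813%). These counts follow from how the loci were chosen. In bulk seedlings more cells that hold a transcript and more of it in each cell cannot be told apart. The differences of abi4-102 from Col-0 ran from 1.84 to 3.18 with lincomycin (median 1.94) and from 0.11 to 2.79 without it (median 1.41), while the medians over all probe sets were 0.0015 and -0.0080. The difference was the larger with lincomycin for 7 of the 8 loci, and larger without it for AT2G20460.

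The ranks show which medium the choice leans on. Among probe sets that name 1 gene, the 8 loci held ranks 2, 3 and 5 to 10 by the difference of abi4-102 from Col-0 with lincomycin. Without lincomycin 7 of them held ranks 3 to 56 and AT2G13160 held rank 3173. The places left between them with lincomycin belong to QQS, with a difference of 3.78, and AT5G44440, with 2.61. Just below the set with lincomycin came AT5G38910 with 1.80, AT1G66100 with 1.75 and AT3G60650 with 1.72, close to the 1.84 of the lowest of the 8 loci; these 3 were named after their values were seen. By the smaller of the differences on the 2 media, the 5 highest loci outside the set were QQS (3.38), AT5G44440 (2.61), AT5G26270 (1.60), AT4G35720 (1.42) and AT3G55920 (1.34). All 5 stood above AT4G03530 (1.11), AT5G43800 (1.03) and AT2G13160 (0.11) of the set by this measure. AT3G55920 differs from the 8 loci in that its gun1-1 arrays were as high as those of abi4-102, at 6.16 and 6.03 in gun1-1 with lincomycin and 6.04 and 6.02 in abi4-102 with lincomycin.

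**Figure D2:**
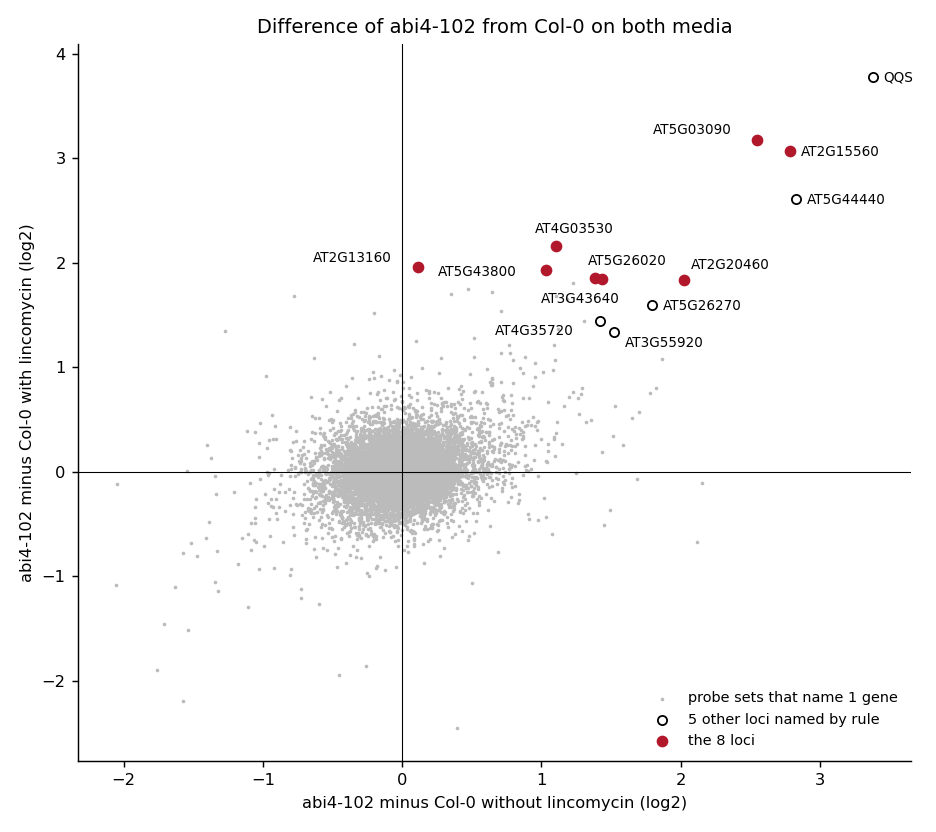
Difference of abi4-102 from Col-0 without lincomycin (horizontal) against that with lincomycin (vertical), both log2; grey points are probe sets that name 1 gene, filled points the 8 loci and open points the 5 other loci with the largest smaller difference. AT2G13160 stands apart from the other 7 loci, at 0.11 without and 1.96 with lincomycin.

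The comparison with gun1-1 asked whether the high levels were shared by the other mutant, and none of the 8 loci differed between gun1-1 and Col-0 past the threshold. With lincomycin 10.0% of all probe sets were called between gun1-1 and Col-0 (limma, Benjamini-Hochberg adjusted p under 0.05 over all probe sets), and 0 of the 8 loci. The differences ran from -0.23 to 0.40, with 4 above 0 and 4 below. Without lincomycin 5 probe sets in all were called (0.022%), and again 0 of the 8 loci, with differences from -0.30 to 0.32. At an unadjusted p under 0.05 there was 1 of the 8 on each medium, AT5G03090 both times, where 23.2% of all probe sets had such a p with lincomycin and 6.74% without it. The 95% intervals reached from -0.60 for AT2G13160 to 0.66 for AT5G03090 with lincomycin, and from -0.67 for AT2G13160 to 0.80 for AT3G43640 without it. The Col-0 arrays had a part in choosing the loci.

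AT5G03090 came nearest to a difference. It was 0.40 higher in gun1-1 than in Col-0 with lincomycin (SE 0.12, limma adjusted p = 0.0617, 95% interval 0.13 to 0.66) and 0.32 higher without it (SE 0.12, adjusted p = 0.647). Both gun1-1 arrays lay above both Col-0 arrays on either medium. Such separation was not particular to AT5G03090. Both gun1-1 arrays lay below both Col-0 arrays for AT2G13160 on either medium and for AT2G15560 with lincomycin. They lay above for AT2G20460 and AT3G43640 without lincomycin. The share of all probe sets with such separation was not counted. The value of AT5G03090 with lincomycin was near the threshold: with each array centred on its median it was called (limma adjusted p = 0.0421). With arrays left out in turn the difference ran from 0.26 to 0.54.

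Both abi4-102 arrays lay above both gun1-1 arrays for 8 of 8 loci with lincomycin, where 27.5% of all probe sets did so, and for 8 of 8 without it, where 18.1% did. The difference of abi4-102 from gun1-1 ran from 1.67 for AT5G26020 to 3.24 for AT2G15560 with lincomycin. Without lincomycin it ran from 0.41 for AT2G13160 to 2.80 for AT2G15560. The abi4-102 arrays chose the loci, so these values too are a description.

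**Figure D3:**
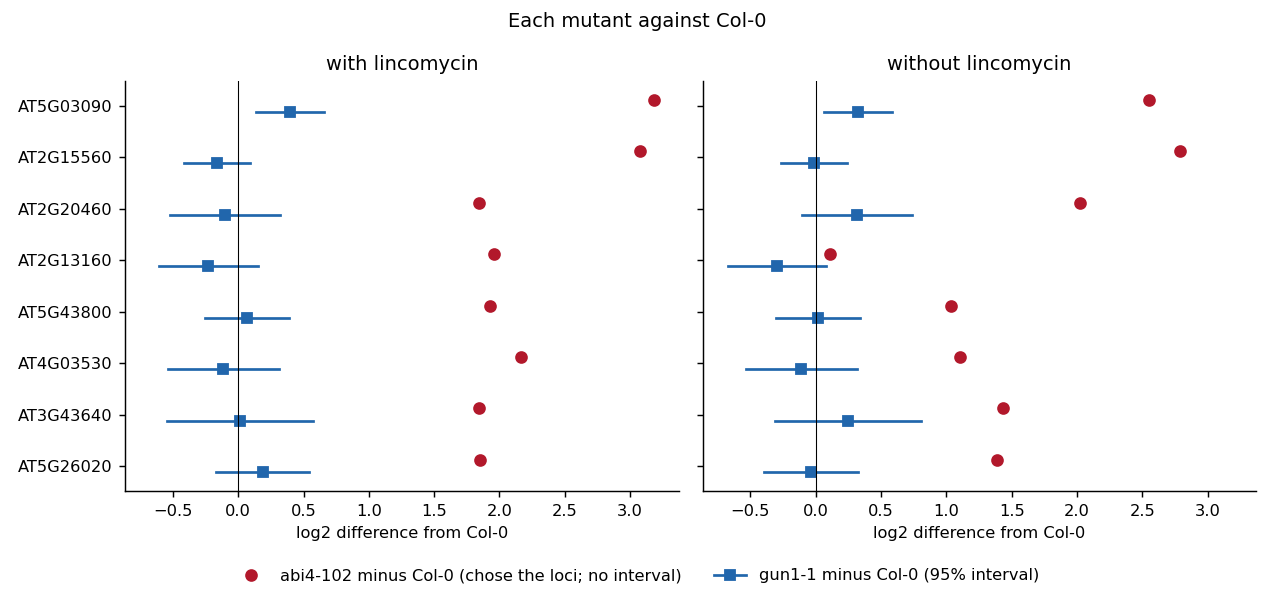
Difference of each mutant from Col-0 (log2, horizontal axis) for the 8 loci with lincomycin (left) and without it (right); circles are abi4-102 minus Col-0 with no interval, since they chose the loci, and squares are gun1-1 minus Col-0 with 95% intervals from limma. The gun1-1 values lie between -0.30 and 0.40 on both media, while those of abi4-102 reach 3.18 with lincomycin.

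The response to lincomycin was read first in gun1-1, whose arrays had no part in choosing the loci. In gun1-1 10.7% of all probe sets were called between media, and 0 of the 8 loci. Their differences with lincomycin minus without it ran from -0.38 for AT2G13160 to 0.14 for AT5G03090, and 7 of 8 were below 0. At an unadjusted p under 0.05 there were also 0 of the 8 in gun1-1, where 26.3% of all probe sets had such a p.

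In Col-0, whose arrays had a part in the choice, 17.4% of all probe sets were called between media and 0 of the 8 loci, with differences from -0.44 for AT2G13160 to 0.16 for AT2G20460. AT2G13160 was the single locus at an unadjusted p under 0.05 in Col-0 (SE 0.17, limma adjusted p = 0.108), where 28.8% of all probe sets had such a p. With arrays left out in turn the difference of AT2G13160 ran from -0.72 to -0.17. It was -0.72 without Col-0 without lincomycin replicate 1, which read 0.55 below its fellow replicate for this locus. For AT5G26020 the difference in Col-0 ran from -0.51 to 0.023.

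The abi4-102 arrays chose the loci, and by the ranks the choice leans on those with lincomycin. Levels in abi4-102 with lincomycin against those without it are therefore a description. The signal was 1.40 higher with lincomycin for AT2G13160 (2.64-fold), 0.86 higher for AT4G03530, 0.71 higher for AT5G43800 and 0.69 higher for AT5G03090. The difference was 0.45 for AT3G43640, 0.34 for AT2G15560, 0.23 for AT5G26020 and -0.03 for AT2G20460. Both arrays with lincomycin lay above both without it for 7 of the 8 loci, all but AT2G20460, where 31.8% of all probe sets did so. The limma fit called 4 of the 8 between media in abi4-102, those with the 4 widest differences. Of all probe sets 13.2% were called, and 7.65% were called higher with lincomycin. The loci were picked for high values on these abi4-102 arrays with lincomycin. The count of 4 is therefore no test of their response and cannot be read against those shares. With arrays left out in turn the difference ran from 1.27 to 1.53 for AT2G13160 and from 0.58 to 1.14 for AT4G03530. It ran from 0.59 to 0.84 for AT5G43800 and from 0.66 to 0.72 for AT5G03090.

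Replicates differed for the loci in some groups. In abi4-102 with lincomycin replicate 2 read above replicate 1 for 8 of 8 loci, by a median of 0.17, while 57.6% of all probe sets did so, and 57.1% of those with a mean level below the median one. In gun1-1 with lincomycin it did so for 8 of 8 loci as well, by a median of 0.29, while 54.9% of all probe sets did, and 64% of those below the median level by a median of 0.08. The number was 4 of 8 in abi4-102, 2 of 8 in gun1-1 and 7 of 8 in Col-0 without lincomycin, and 6 of 8 in Col-0 with it. The part of these gaps in the results was not tested.

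The responses were also set against each other. For the response of gun1-1 minus that of Col-0, 4.38% of all probe sets were called and 0 of the 8 loci, with values from -0.42 for AT2G20460 to 0.23 for AT5G26020. The response of abi4-102 minus that of Col-0 equals the difference of abi4-102 from Col-0 with lincomycin minus the same without it, so it shares the values that chose the loci and is given as a description. It was 1.85 for AT2G13160, with 1.40 in abi4-102 and -0.44 in Col-0. The values were 1.06 for AT4G03530, 0.90 for AT5G43800 and 0.63 for AT5G03090, and those of the other 4 ran from -0.18 to 0.47. None of the 22746 probe sets was called by limma for this contrast (0.0%), while 9.8% of them had an unadjusted p under 0.05.

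**Figure D4:**
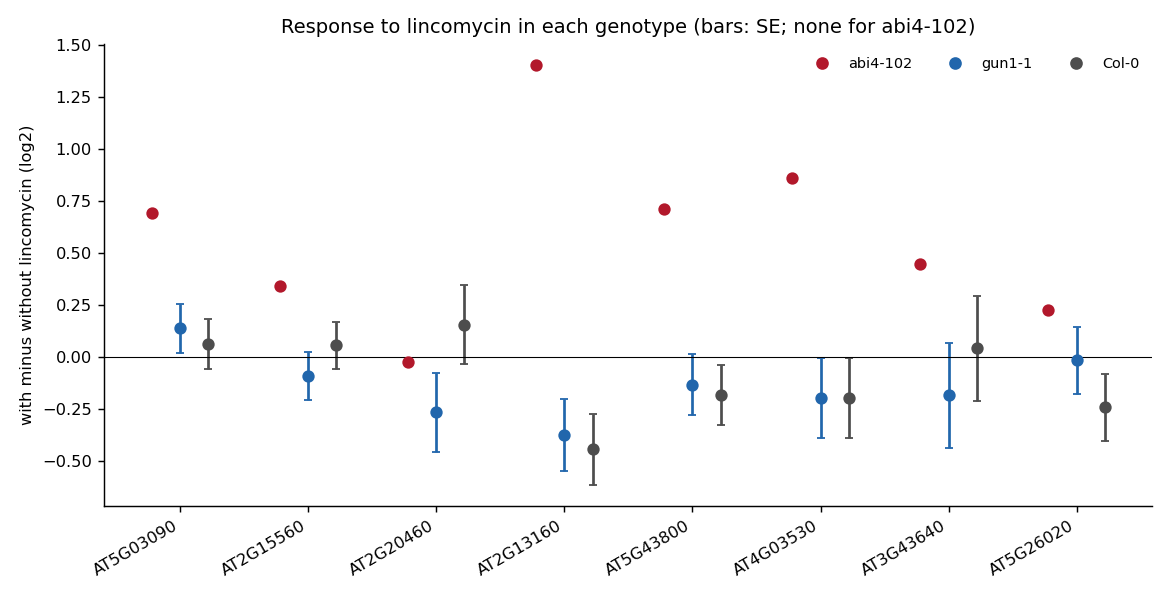
Response to lincomycin (with minus without, log2, vertical axis) of the 8 loci in abi4-102, gun1-1 and Col-0; points are differences of 2-array means, and bars, for gun1-1 and Col-0, are the SE from limma. The abi4-102 values, whose arrays chose the loci, reach 1.40 for AT2G13160, and all gun1-1 values lie between -0.38 and 0.14.

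The 8 loci lie on 4 chromosomes, 3 each on chromosomes 2 and 5 and 1 each on chromosomes 3 and 4, and their surroundings differ. Of the 20 genes around each, 10 on either side in the gene table, pseudogenes made up 85% for AT2G13160 and 60% for AT3G43640. The share was 30% for AT2G15560 and 10% for AT5G26020, and 0% for the other 4, against 15% over all chromosomes. Pseudogene neighbours were thus common for some of the loci and absent for others, and 3 of the 4 loci with no such neighbour, AT2G20460, AT5G43800 and AT4G03530, are pseudogenes themselves.

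Few genes beside the loci were called in abi4-102 against Col-0. For each locus the 5 nearest genes with a probe set that names them alone were taken on either side, 80 in all. In abi4-102 against Col-0 1 of the 80 was called with lincomycin, where 0.457% of all probe sets were called, and 1 of the 80 without it, where 1.68% were. It was the same gene on both media, AT2G15510, a pseudogene 6 genes before AT2G15560. AT2G15510 read 4.87 and 4.54 in abi4-102 with lincomycin against 3.53 and 3.80 in Col-0 with it, a difference of 1.04 (SE 0.16, limma adjusted p = 0.0194). Without lincomycin it read 4.56 and 4.58 in abi4-102 against 3.60 and 3.63 in Col-0, a difference of 0.96 (SE 0.16, limma adjusted p = 0.0166). With each of the 12 arrays left out in turn AT2G15510 was called in 8 of 12 fits on either medium, with differences from 0.87 to 1.21 with lincomycin (highest adjusted p = 0.121) and from 0.94 to 0.97 without it (highest adjusted p = 0.154). Its gun1-1 arrays lay between 3.51 and 3.83. The 3 measured genes between AT2G15510 and AT2G15560, all pseudogenes, were not called on either medium, with differences from -0.32 to 0.08. The neighbours of the other 7 loci ran from -0.65 to 0.49 with lincomycin and from -0.69 to 0.83 without it.

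**Figure D5:**
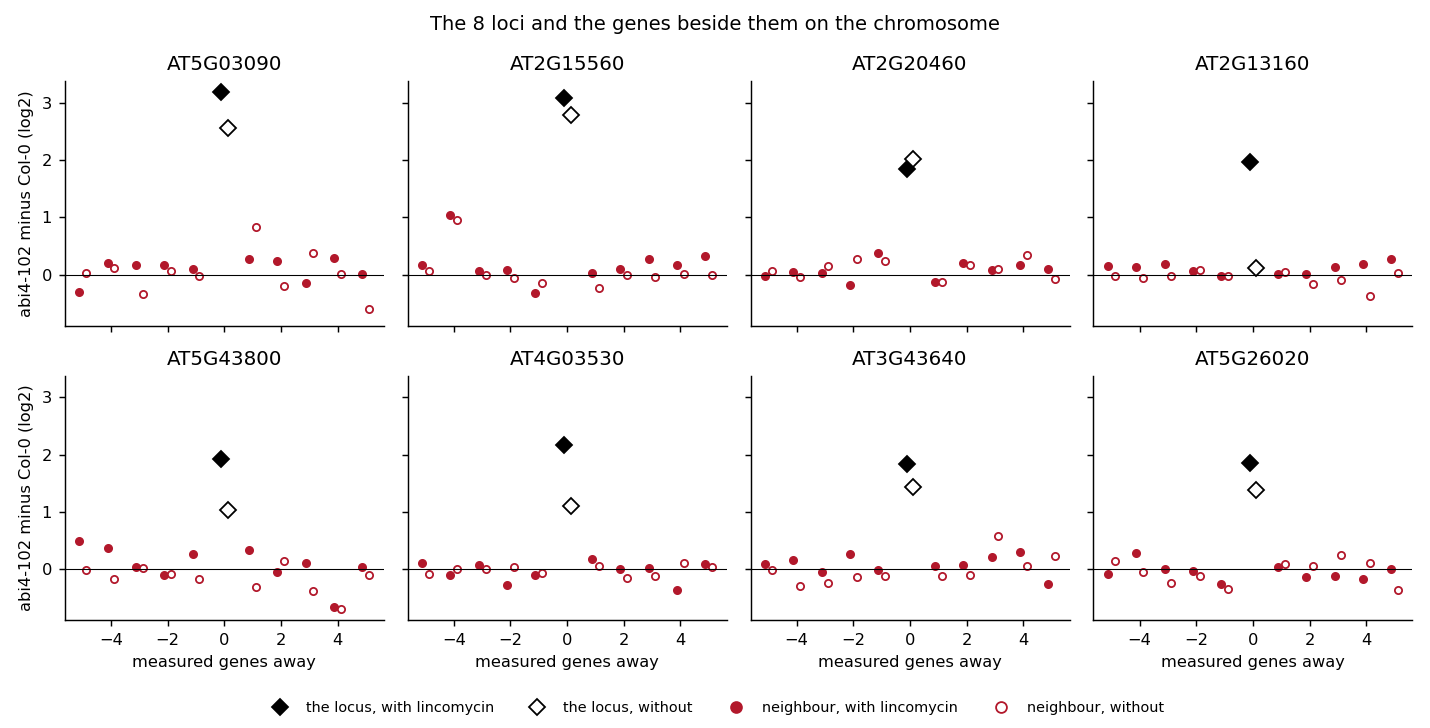
Difference of abi4-102 from Col-0 (log2, vertical axis) for each of the 8 loci (diamonds) and its 10 nearest measured genes (circles), by place in the order of measured genes along the chromosome (horizontal axis); filled marks are with lincomycin and open marks without it. Only AT2G15510, 4 measured genes before AT2G15560, lies near 1 on both media, at 1.04 with and 0.96 without lincomycin.

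Because 6 of the 8 loci are pseudogenes, the other 992 pseudogenes with a probe set that names them alone were counted. The list was added after the annotation was seen. Probe sets with probes shared with related sequences were kept in it. In abi4-102 against Col-0 with lincomycin 8 were called higher and 1 lower (0.907%, against 0.457% of all probe sets). Those with the largest rises were AT3G13270 at 1.21, AT2G16000 at 1.07 and AT2G15510 at 1.04, and AT4G16870 was the one lower, at -1.21 (limma adjusted p = 0.00045, 0.0054, 0.0194 and 0.0417). Without lincomycin 5 were called higher and 0 lower (0.504%, against 1.68% of all probe sets), with AT3G13270 at 1.09, AT2G15510 at 0.96 and AT4G14460 at 0.87. With 1 array left out the number called ran from 2 to 7 with lincomycin (all probe sets 0.202% to 0.422%) and from 1 to 8 without it (0.171% to 1.8%). Most pseudogenes on the array were thus not called in abi4-102: the median difference of the 992 was 0.04 with lincomycin and -0.03 without it. In gun1-1 against Col-0 with lincomycin 1 was called higher and 3 lower (0.403%, against 10.0% of all probe sets). Without lincomycin 0 were called, against 0.022% of all probe sets. The comparison with 10.0% of all probe sets is not matched for signal level. In the upper 60% of probe sets by mean, 17.3% were called in gun1-1 against Col-0 with lincomycin. The share among probe sets of the same level as the pseudogenes was not counted. All 4 abi4-102 arrays lay above all 8 others for 14 of the 992 pseudogenes (1.41%), against 77 of 12329 other protein-coding genes (0.625%), and none of the 14 had a gap over 1 between the sets of arrays. The list in the words of transposable elements held 16 loci of the gene table, of which 0 have a probe set that names them alone.

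The patterns of the 8 loci over the 12 arrays were much alike, as the choice would make them. The correlation of each with the mean of the 8, each scaled over the arrays, ran from r = 0.968 to 0.992 for 7 loci, and was 0.879 for AT2G13160. Each locus is itself part of that mean, which raises its r, while the genes named next are not. Of 1217 probe sets that name 1 other gene and whose group means span at least 1, the 5 most like that mean over the 12 arrays were QQS (r = 0.983), AT2G16000 (0.966), AT3G13270 (0.963), AT2G15510 (0.952) and AT5G45570 (0.918). QQS, a gene known for an effect on starch content, read 7.37 and 7.59 in abi4-102 with lincomycin and 6.80 and 6.94 without it, and between 3.38 and 3.73 on all gun1-1 and Col-0 arrays. AT2G16000, AT3G13270 and AT2G15510 are pseudogenes, and AT5G45570 is protein-coding, with a mean of 3.76 in abi4-102 with lincomycin, against 2.62 in Col-0 with it. The arrays share the 6 groups, so these correlations describe group levels in the main and carry no p.

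Of the list of DNA methylation and silencing genes, which also holds DNA demethylases, few could be read: 3 of 49. They are the histone H1 genes AT1G06760 and AT2G30620 and the DNA demethylase gene DME, whose product removes methylation. No gene that adds DNA methylation was among them, so they say little of the machinery that keeps transposable elements quiet. None of the 3 was called in either mutant against Col-0 on either medium, and the differences of abi4-102 from Col-0 nearest the threshold were 0.22 for AT2G30620 with lincomycin (limma adjusted p = 0.530) and 0.29 without it (adjusted p = 0.253). Of the abscisic acid list 3 of 25 could be read. In abi4-102 against Col-0 1 of the 3 was called with lincomycin (0.457% of all probe sets) and 0 without it (1.68%). The called gene was APL3, which encodes a large subunit of ADP-glucose pyrophosphorylase in starch synthesis. APL3 was 0.80 higher in abi4-102 than in Col-0 with lincomycin (SE 0.15, limma adjusted p = 0.0499), just past the threshold. It averaged 4.46 with and 4.41 without lincomycin in abi4-102, and 3.65 with and 4.36 without it in Col-0. COR15A, a cold-regulated gene that also responds to abscisic acid, differed by -1.54 in abi4-102 without lincomycin (SE 0.61, limma adjusted p = 0.263). The remaining gene, SBE2.2, differed by -0.30 in abi4-102 without lincomycin (SE 0.16, limma adjusted p = 0.434).

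Markers of tissues were read beside the 8 loci. All 6 green tissue markers were measured and averaged at percentile 94.3 or higher in every group. Of these 6, LHCB4.2, an antenna protein gene of photosystem II, was called higher in abi4-102 than in Col-0 with lincomycin, at 10.9 against 10.3 (limma adjusted p = 0.0481). Without lincomycin 0 were called, and the shares of all probe sets called were 0.457% with and 1.68% without it. In gun1-1 against Col-0 with lincomycin all 6 were called higher, where 10.0% of all probe sets were called, and the 8 loci were not. The 6 are photosynthesis genes, and in Col-0 all 6 averaged lower with lincomycin, PSAE-1 at 10.6 against 12.4 without it. A lower level in each cell and a smaller amount of green tissue cannot be told apart in these data. The root markers EXPA7 and EXPA18 (2 of 8 measured) averaged 4.86 and 5.38 in abi4-102 with lincomycin and 4.86 and 5.46 in Col-0 with it, and neither was called in any comparison of a mutant with Col-0. The sperm cell histone gene MGH3 (1 of 6 pollen and sperm markers) averaged 3.79 in abi4-102 with lincomycin and 3.57 in Col-0 with it. The endosperm gene AGL62 (1 of 5) averaged 2.85 in abi4-102 with lincomycin and 2.96 in Col-0 with it. Neither was called in either mutant on either medium, and 0 of 11 seed markers could be read.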

How the data were processed

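The authors deposited log2 values from RMA, which corrects background, makes the distributions of the arrays alike and summarises each probe set; RMA is named in the submitters' processing notes, its version and implementation are not stated there, and that the scale is log2 was judged by the range of the values. RMA would hide a change in total mRNA and shrinks differences between dim probe sets. The labels do not say whether replicates are separate cultures, and p-values cover the spread between these samples alone, which may be technical.

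Of 22810 probe sets 64 controls were left out. In the array annotation 13513 name 1 gene, 503 several and 8730 are unnamed here; 13484 of those with 1 gene were found in the TAIR10.1 gene table, which served for names, classes and gene order only. The files name no build, so no coordinates are given. Group means of all 12 arrays were fitted by lmFit and eBayes of limma 3.58.1 (R 4.3.3; 6 residual degrees of freedom, two-sided), with Benjamini-Hochberg adjustment over 22746 probe sets within a comparison and calls at an adjusted p under 0.05. The fit was tested on simulated data. The 8 loci, the lists and the rules for named genes were chosen with earlier results of these data known. Named were all 8 loci, the 5 genes most alike and the 5 loci outside the set with the largest smaller difference. Of each list up to 3 called genes with the commoner sign and 1 with the opposite sign were named. Where none was called, the 2 of smallest p were named. The alternatives were a replicate block, only the groups compared, array quality weights, a robust prior with an intensity trend, median centring, quantile normalization again, the upper 60% of probe sets by mean and each array left out.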

Additional observations from a re-analysis of the deposited data

How the results depend on the processing

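Of 1036 differences of the 8 loci recomputed under the alternatives, over 7 tested comparisons, 983 kept their sign and their side of the threshold, 6 lost a call and 9 gained one, and 38 changed sign, 0 of them called. Leaving out arrays moved the number of loci called for lincomycin between 2 and 4 in abi4-102 and between 0 and 1 in Col-0, and likewise between 0 and 1 for the abi4-102 minus Col-0 response and for gun1-1 against Col-0 with lincomycin. The share of all probe sets called moved too, between 5.08% and 13.6% for lincomycin in abi4-102 and between 9.23% and 17.8% in Col-0. The abi4-102 counts, alone and minus Col-0, share the arrays that chose the loci. The cause was not tested. In a fit of the abi4-102 groups only, AT4G03530 lost its call for lincomycin (limma adjusted p = 0.0504). With the robust prior and intensity trend 1 locus, AT2G13160, was called for the abi4-102 minus Col-0 response, where 0.0396% of all probe sets were. That contrast holds the values that chose the loci, so the call is no test. For gun1-1 against Col-0 with lincomycin 1 locus, AT5G03090, was called with the replicate block (limma adjusted p = 0.0483), with median centring (0.0421), with quantile normalization again (0.0312) and in the upper 60% of probe sets (0.0476), where 4 of the 8 loci were left. The share of all probe sets in the fit that were called was 9.71%, 9.77%, 10.2% and 17.3% in that order. The main fit did not take the replicate numbers as pairs, and the labels do not say whether they are. Over 15 pairs of groups the correlation of same-numbered deviations ran from -0.283 to 0.281, with 3 over 0.1. The highest was between abi4-102 without and with lincomycin, and these values do not settle the question. The replicate block changed no other call of the 8 loci. Sign changes of uncalled differences were 0.0287 for AT5G26020 between media in gun1-1 and -0.0023 for AT5G43800 in gun1-1 against Col-0 without lincomycin, both with quantile normalization again, and 0.0364 for AT4G03530 in the gun1-1 minus Col-0 response with median centring. For lincomycin in abi4-102, with arrays left out in turn, differences that changed sign ran from -0.34 to 0.28 for AT2G20460. For lincomycin in gun1-1, such ranges were -0.0037 to 0.28 for AT5G03090, -0.32 to 0.053 for AT5G43800, -0.56 to 0.19 for AT3G43640 and -0.083 to 0.048 for AT5G26020. For lincomycin in Col-0, such ranges were -0.14 to 0.23 for AT3G43640 and -0.51 to 0.023 for AT5G26020. For the abi4-102 minus Col-0 response, such ranges were -0.49 to 0.13 for AT2G20460. For the gun1-1 minus Col-0 response, such ranges were -0.066 to 0.21 for AT5G03090, -0.21 to 0.34 for AT2G13160, -0.14 to 0.24 for AT5G43800, -0.19 to 0.19 for AT4G03530, -0.60 to 0.15 for AT3G43640 and -0.041 to 0.49 for AT5G26020. In gun1-1 against Col-0 without lincomycin, such ranges were -0.083 to 0.056 for AT2G15560, -0.056 to 0.088 for AT5G43800, -0.30 to 0.078 for AT4G03530 and -0.12 to 0.039 for AT5G26020. In gun1-1 against Col-0 with lincomycin, such ranges were -0.26 to 0.058 for AT2G20460, -0.12 to 0.25 for AT5G43800, -0.26 to 0.037 for AT4G03530, -0.36 to 0.39 for AT3G43640 and -0.079 to 0.45 for AT5G26020. The counts planned for loci in the words of transposable elements could not be given, since 0 of them have a probe set that names them alone. The number of arrays and the dim signal of the loci in gun1-1 and Col-0 limit the precision.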
